A study of Rattus norvegicus with 22 samples.

Results

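The livers of rats fed with the BASE-diet for 14 months (BD 14, 6 rats) were compared with those of rats fed with the control diet for the same time (CD 14, 6 rats), which took 12 of the 22 samples of the series. The members were the arrays whose titles name the experimental and the control diet at 14 months. The BASE-diet held 6% salmon fat in place of most of the lard of the control feed, and 8% linden extract, 8% pumpkin puree and 1% of a probiotic, as the labels give them. The study's composition of the feeds gives the probiotic as 1 g per kg, which is less than that 1%. By the same composition the BASE-diet also held more rapeseed oil, less wheat starch and no added water. All these were given together, so the loss of lard and the parts of the additions cannot be told apart. All rats were male Sprague-Dawley rats kept in cages of their own with free access to feed. One Agilent two-colour array was made for each rat, with the liver RNA labelled with Cy5 and a common reference RNA from livers of 10-week-old rats labelled with Cy3. No dyes were swapped. The methods of the study name the dyes the other way for the control rats, and the labels of the arrays were followed here. Values are log2 ratios of a rat's liver to the reference, and a difference is the mean of BD 14 minus the mean of CD 14 on that scale, where 1 corresponds to a doubling. Each rat gave 1 array, so the spread within a group holds both the differences between animals and the error of an array.

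PPARα is a nuclear receptor that fatty acids activate, and in liver it turns on the genes that take fatty acids apart. Long-chain fatty acids, the omega-3 fatty acids of fish oil among them, are bound to coenzyme A, carried into mitochondria by the carnitine system or shortened in peroxisomes, and split by β-oxidation. Acyl-CoA thioesterases release the fatty acid again, and ω-hydroxylases of the Cyp4a family oxidize its far end. SREBP-2 is the factor that turns on the genes of cholesterol synthesis when sterols are low, and its relative SREBP-1 acts on fatty acid synthesis.

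PPARα binds, with its partner RXR, to a direct repeat of the letters AGGTCA with 1 base between the copies. Promoter sequences of RefSeq (rat build GRCr8, 250 bases before to 50 bases after each start) are shown for 3 genes, Fabp1 as the one tested PPARα target whose window held such a repeat, Eci1 as a gene with a single copy, and Hadha because it shares its upstream region with Hadhb. Capitals mark the repeat in Fabp1 and the single copy in Eci1, both read on the opposite strand.
Fabp1, chr4:104749220-104749309, + strand: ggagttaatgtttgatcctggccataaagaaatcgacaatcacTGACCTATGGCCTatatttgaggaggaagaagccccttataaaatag
Eci1, chr10:13961110-13961199, + strand: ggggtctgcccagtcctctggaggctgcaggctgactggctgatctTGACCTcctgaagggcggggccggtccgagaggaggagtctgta
Hadha, chr6:31907551-31907800, + strand: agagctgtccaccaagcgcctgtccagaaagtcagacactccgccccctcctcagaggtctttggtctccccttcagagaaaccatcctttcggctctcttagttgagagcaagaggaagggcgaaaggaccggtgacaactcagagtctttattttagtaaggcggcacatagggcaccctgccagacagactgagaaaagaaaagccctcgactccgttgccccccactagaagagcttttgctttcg
The repeat, searched as AGGNCANAGGNCA on both strands, lay at positions −77 to −65 relative to the start of Fabp1 and was found in 139 of 33469 rat promoters (0.415%) and in 1 of the 60 promoters of the PPARα targets tested. The single copy AGGTCA, which the repeat can contain, stood in 16.2% of all promoters and in 16 of those 60 (26.7%). A match is a match of letters, and windows of this length leave out elements that lie farther away.

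The measurements were checked before the groups were compared. All 13 hepatocyte markers were well above background on all 12 arrays. Spots whose Cy5 signal stood clear of the background made up 69.1 to 74.3% of a BD 14 array and 67.3 to 90.6% of a CD 14 array, with the highest values in CD 14 rats 1 and 3. CD 14 rat 1 also had 4.05% of spots with uneven signal, against at most 0.0341% on the other 11 arrays. Several arrays shared a slide, and all 6 BD 14 arrays shared slide A with CD 14 rats 4 and 5, while CD 14 rats 1 to 3 lay on slide B and rat 6 on slide C. Diet and slide are therefore told apart only by 6 BD 14 and 2 CD 14 arrays, and the difference within slide A, where it is given, rests on these. Over all probes tested, log2 ratios correlated between 0.24 and 0.57 among BD 14 arrays and between 0.29 and 0.60 among CD 14 arrays.

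No single probe passed the threshold between the diets after 14 months. By limma with Benjamini-Hochberg adjustment over 18883 probes, 0 probes had an adjusted p under 0.05 (0%), and the lowest adjusted p was 0.146. Unadjusted p-values under 0.05 were found for 860 probes, of which 708 were higher and 152 lower in BD 14. A threshold of 0.05 lets through a share of about 0.05 where nothing differs, and 860 of 18883 probes is below that share. Counted by gene, with the brightest probe standing for each of 12666 genes, 412 genes were higher (3.25%) and 125 were lower (0.987%) at an unadjusted p under 0.05. The filter kept genes well above background on all arrays of either diet. The 681 genes that passed through BD 14 alone held 84 higher and 1 lower, the 207 that passed through CD 14 alone 11 and 5, and the 11778 genes well above background on all 12 arrays 317 and 119. Fitted with weights for the quality of each array, limma called 5 probes, which report Tcf20, Acot1, Disp1, Acaa1a and Dctn4. With the slide as a block it called 6, among them probes for Ddhd2, Wnt11 and Grip1, all at an adjusted p of 0.0498. The methods' F test followed by Tukey's HSD gave 172 probes without adjustment, and 1 after Benjamini-Hochberg adjustment. The genes below are described by their values and by the difference with its standard error (SE) from limma. Counts of list members are those with an unadjusted p under 0.05, and the adjusted p was 0.146 or above for every gene named.

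The surplus of higher over lower genes lay mostly among dim probes. The genes were put into 10 bins of equal size by their mean Cy5 signal. In the 2 dimmest bins (2534 genes), 241 were higher and 17 lower at an unadjusted p under 0.05. In the 3 brightest (3800 genes) there were 47 and 58. Of the 6333 genes at or above the median signal, 80 were higher (1.26%) and 80 were lower (1.26%). The share of higher probes among those with an unadjusted p under 0.05 also moved with the scaling, from 82.3% to 72.0% after normexp background correction with loess, 68.4% in the Cy5 channel alone and 66.7% with each array centred on its median. Within the slide that held all BD 14 arrays it was 64.4%. Genes with a signal below the median are called dim below where lists are counted. Counts under other settings stand against other shares of all genes, which were 5.91% higher and 4.67% lower within slide A, 3.84% and 3.4% with the slide as a block, 7.82% and 2.72% with array weights, 3.17% and 1.74% in the Cy5 channel alone, and 2.38% and 1.29% after normexp. With each array left out the shares were 2.25 to 3.62% higher and 0.647 to 1.34% lower.

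**Figure D1:**
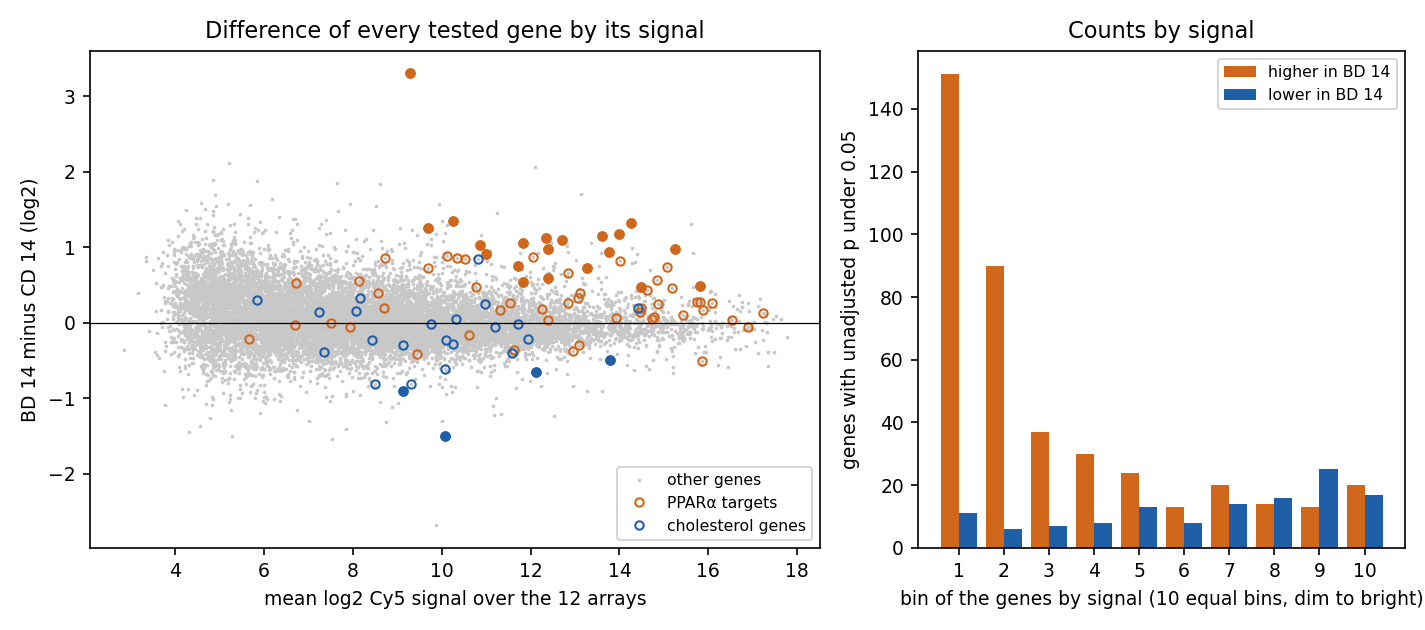
The left panel plots the BD 14 minus CD 14 difference (log2) of every tested gene against its mean log2 Cy5 signal over the 12 arrays, with PPARα targets in orange and cholesterol genes in blue, filled where the unadjusted p was under 0.05. The right panel counts the genes with an unadjusted p under 0.05 in each of 10 bins by signal, and shows 151 higher and 11 lower genes in the dimmest bin against 20 and 17 in the brightest.

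Genes of fatty acid oxidation stood at higher ratios in BD 14, and they did so among the brightest probes of the array. Of the 68 PPARα targets tested in 5 lists, 58 were higher and 10 lower in BD 14, and their median difference was 0.45 on the log2 scale, beside 0.02 over all genes tested. At an unadjusted p under 0.05, 20 were higher (29.4%, beside 3.25% of all genes) and 0 were lower (beside 0.987%). Of the 63 targets at or above the median signal these 20 made up 31.7%, beside 1.26% of all such genes, and they were 20 of the 80 bright genes that were higher (25%). In the brightest bin they were 12 of 20. All 68 were well above background on all 12 arrays. After adjustment, 0 of the 68 passed. The lists here and below were written with earlier results of these data known, so their shares are no independent evidence.

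The lead of BD 14 over CD 14 was found on most arrays but was not equal on all of them. The mean log2 ratio of the 68 genes was 0.03 ± 0.31 (SD, n = 6) in BD 14, from −0.50 in rat 2 to 0.42 in rat 4, and −0.46 ± 0.42 (SD, n = 6) in CD 14, from −1.22 in rat 3 to −0.06 in rat 2. BD 14 rats 1, 3, 4, 5 and 6 lay above all CD 14 rats, and BD 14 rat 2 lay below CD 14 rats 1, 2, 4 and 6. Within slide A, 55 of the 68 genes were higher and the median difference was 0.40. In the rats fed for 3 months, which were other animals measured against the same reference, 49 of the 68 genes were higher in BD 3 and the median difference was 0.26. The group means there were −0.03 ± 0.19 (SD, n = 5) in BD 3 and −0.30 ± 0.29 (SD, n = 5) in CD 3. BD 3 rats 1 and 2 lay on slide D with CD 3 rat 1, and BD 3 rats 3 to 5 on slide B. CD 3 rats 2 to 4 lay on slide E and CD 3 rat 5 on slide C. Among the 3-month arrays the diets thus shared only slide D, and diet and slide are hardly told apart there.

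**Figure D2:**
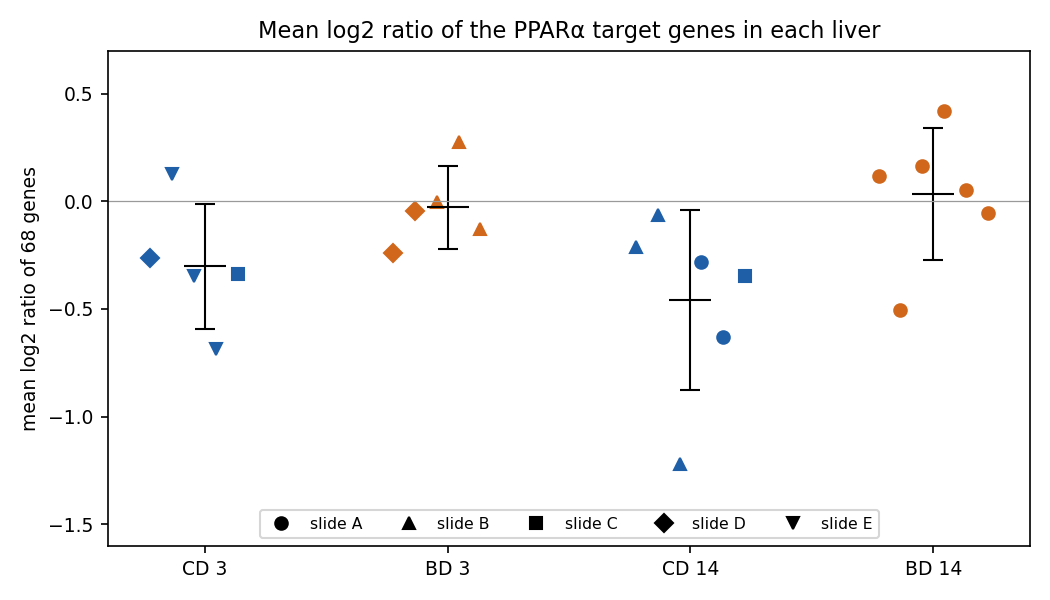
The mean log2 ratio of the 68 PPARα target genes is plotted for each liver of the 4 groups, with a marker for the slide and black bars for the group mean ± SD. At 14 months 5 of the 6 BD 14 livers lie above all CD 14 livers, and CD 14 rat 3 is the lowest of all at −1.22.

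The number of targets with an unadjusted p under 0.05 depended on single arrays. Without CD 14 rat 3, the lowest array, it was 11, and without CD 14 rat 5 or BD 14 rat 4 it was 12. Without CD 14 rats 1 and 3 together it was 12, with the slide as a block 9, and with array weights 34. The median difference was less variable, between 0.30 and 0.48 over 15 settings of the processing and between 0.32 and 0.51 with each array left out, when 50 to 62 of the 68 genes were higher. Settings that change only the test or the other probes kept, such as the trend of variance, other filters or only the 12 arrays, left it at 0.45. The slide as a block and slide A alone both gave 0.40. The part of single arrays and of the slide in the counts was not tested beyond these values. In whole liver, more RNA per hepatocyte and more hepatocytes in the piece cannot be told apart. The mean log2 ratio of the 13 hepatocyte markers was −0.30 to 0.35 on the BD 14 arrays and −0.53 to 0.25 on the CD 14 arrays.

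Acyl-CoA thioesterases had the largest difference of the comparison. Acot1, the cytosolic thioesterase of long-chain acyl-CoA (probe at chr6:108049691-108049750 of build rn4), was at 1.16, −1.78, 0.92, 1.69, −0.20 and 2.04 in BD 14 rats 1 to 6. In CD 14 rats 1 to 6 it was at −0.74, −2.40, −3.15, −3.65, −3.85 and −2.22. All BD 14 rats but rat 2 lay above all CD 14 rats. The difference was 3.31 ± 0.58 (SE), a 9.89-fold higher ratio (adjusted p = 0.146 in limma). Within slide A it was 4.39, and at 3 months 2.54. Acot1 passed the threshold when BD 14 rat 2 was left out (difference 3.79, adjusted p 0.00566), when CD 14 rat 1 was left out (3.69, adjusted p 0.0280) and with array weights (adjusted p 0.00676). With each of the other 10 arrays left out it did not pass.

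The neighbours of Acot1 on chromosome 6 had smaller differences. Acot2, the mitochondrial member (chr6:108024282-108024341), ranged from −0.77 to 0.75 in BD 14 with a median of 0.02, and from −2.56 to −0.21 in CD 14 with a median of −0.63. Its difference was 0.97 ± 0.34, and 1.20 within slide A. Acot3, a peroxisomal member (chr6:108094199-108094258), differed by 0.87 ± 0.43, short of an unadjusted p of 0.05, and by 0.43 within slide A, with −0.91 to 1.03 in BD 14 and −2.38 to −0.05 in CD 14. Acot1, Acot2 and Acot3 are close copies of one another, so the signal of a probe may hold RNA of a relative. In the list of thioesterases 9 of 10 tested genes were higher, 2 of them at an unadjusted p under 0.05 (20%, beside 3.25% of all genes), with a median difference of 0.56. Without CD 14 rat 3 the median was 0.32, and without BD 14 rat 2 the count was 5. At 3 months 5 of the 10 were higher and the median was −0.01, while Acot1 itself was at 0.59 ± 0.84 (SD, n = 5) in BD 3 and −1.95 ± 0.57 (SD, n = 5) in CD 3.

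Of the ω-hydroxylases and their partners, Cyp4a1 was the member whose brightest probe had an unadjusted p under 0.05. It ranged from −1.54 to 0.18 in BD 14, with a median of −0.51, and from −2.78 to −0.55 in CD 14, with a median of −1.41. The difference was 0.94 ± 0.36, 1.15 within slide A and 0.93 at 3 months. BD 14 rats 3, 4 and 5 lay above all CD 14 rats, and the groups overlapped. Over the 5 genes of the list, 4 were higher, 1 of them at an unadjusted p under 0.05 (20%, beside 3.25% of all genes), and the median difference was 0.10. The direction of the list rested on single arrays, since the median was −0.37 with 2 genes higher and 0 under the threshold without CD 14 rat 3, −0.21 with 1 higher without BD 14 rat 4, and −0.02 with 2 higher without BD 14 rat 5. Without CD 14 rats 1 and 3 together it was −0.36. Aldh3a2, an aldehyde dehydrogenase of fatty aldehydes, differed by 0.08 ± 0.24 in its brightest probe and by 0.86 ± 0.40, at an unadjusted p under 0.05, in a dimmer one.

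Of the 5 lists, peroxisomal genes had the highest share over all arrays, though not under all settings. Of 15 tested, 13 were higher in BD 14, 7 of them at an unadjusted p under 0.05 (46.7%), with a median difference of 0.49 that was 0.60 within slide A. The count was 3 without BD 14 rat 4 or without CD 14 rat 5, 4 without CD 14 rat 3 and 2 with the slide as a block, and with array weights 10, beside 7 of the 10 thioesterases. Crot, which moves shortened acyl groups to carnitine so that they can leave the peroxisome (chr4:22024030-22024090), was at 1.02, −0.10, 0.77, 1.00, 1.08 and 0.75 in BD 14 rats 1 to 6. In CD 14 rats 1 to 6 it was at −0.96, 0.56, −1.86, 0.27, −1.16 and 0.57. All BD 14 rats but rat 2 again lay above all CD 14 rats, and the difference was 1.18 ± 0.35, and 1.20 within slide A. Ech1, an isomerase for fatty acids with double bonds in odd positions (chr1:83938502-83938561), ranged from −0.92 to 0.28 in BD 14 and from −3.02 to −0.77 in CD 14, with medians of −0.13 and −1.09. Its difference was 1.15 ± 0.33, 0.93 within slide A and 0.81 without CD 14 rat 3, which held the value of −3.02.

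Other genes of the peroxisomal spiral had differences of the same direction. Ehhadh, the bifunctional enzyme of its middle steps, differed by 1.12 ± 0.48, and by 1.80 within slide A, with −0.62 to 0.97 in BD 14 and −1.93 to 0.09 in CD 14. Acaa1b, the thiolase of the last step, ranged from −0.32 to 0.87 in BD 14 and from −0.95 to −0.15 in CD 14, and differed by 0.97 ± 0.32, and by 0.88 within slide A. A second Acaa1b probe gave 1.11. Abcd3, which carries fatty acids into the peroxisome, differed by 0.48 ± 0.22 at 14 months and by −0.07 at 3 months. Pex11a, which helps peroxisomes divide, ranged from −1.88 to 1.20 in BD 14 and from −2.56 to 0.16 in CD 14, with medians of 0.38 and −0.96. Of Crot, Ech1 and these 4 genes, all but Abcd3 had differences above 0 at 3 months, and all 6 within slide A. Abcd3 and Pex11a were named after their values were seen.

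The carnitine system and mitochondrial β-oxidation followed. Of 21 genes tested, 20 were higher in BD 14, 7 of them at an unadjusted p under 0.05 (33.3%), and the median difference was 0.55. The count was 4 without CD 14 rat 3 or without CD 14 rat 5, 2 with the slide as a block and 13 with array weights. The exception was Pdk4, a kinase that holds back glucose oxidation, at −0.06 ± 0.34. Cpt1a, the gate of long-chain fatty acids into mitochondria (chr1:205912066-205912125), ranged from −1.22 to −0.03 in BD 14 and from −3.28 to −0.69 in CD 14, with medians of −0.82 and −1.55. Its difference was 1.06 ± 0.43, 1.41 within slide A and 1.26 at 3 months. The carrier Slc25a20 followed with 0.55 ± 0.22, the inner acyltransferase Cpt2 with 0.60 ± 0.22 and the short-chain acyltransferase Crat with 0.73 ± 0.33. In each of these 4 genes the highest rat was a BD 14 rat and the lowest was CD 14 rat 3. Cpt1a, Slc25a20 and Crat were named after their values were seen.

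Hadha and Hadhb, the subunits of the mitochondrial trifunctional protein, are read in opposite directions from starts with 300 bases between them, the region whose larger part is printed above. Hadha did not overlap between the diets. It was at 0.24, 0.42, 0.46, 0.34, −0.03 and −0.09 in BD 14 rats 1 to 6 and at −0.20, −0.52, −0.97, −0.35, −0.42 and −0.73 in CD 14 rats 1 to 6, a difference of 0.75 ± 0.30. Hadhb, named after its values were seen, ranged from −0.02 to 0.61 in BD 14 and from −1.16 to −0.01 in CD 14, a difference of 0.85 ± 0.42 that fell short of an unadjusted p of 0.05. Within slide A the differences were 0.60 and 0.88, and at 3 months 0.34 and 0.48. A second Hadha probe gave 0.27 ± 0.37, so the size rests on the brighter probe. Eci1, the isomerase of unsaturated acyl-CoA whose promoter is shown above (chr10:13695561-13695620 of build rn4), ranged from −0.44 to 0.68 in BD 14 and from −2.93 to −0.12 in CD 14, with medians of 0.04 and −1.13. It differed by 1.32 ± 0.39, and by 1.17 within slide A, and all BD 14 rats but rat 2 lay above all CD 14 rats. Acat1, the thiolase that also makes ketone bodies, differed by 0.92 ± 0.37.

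**Figure D3:**
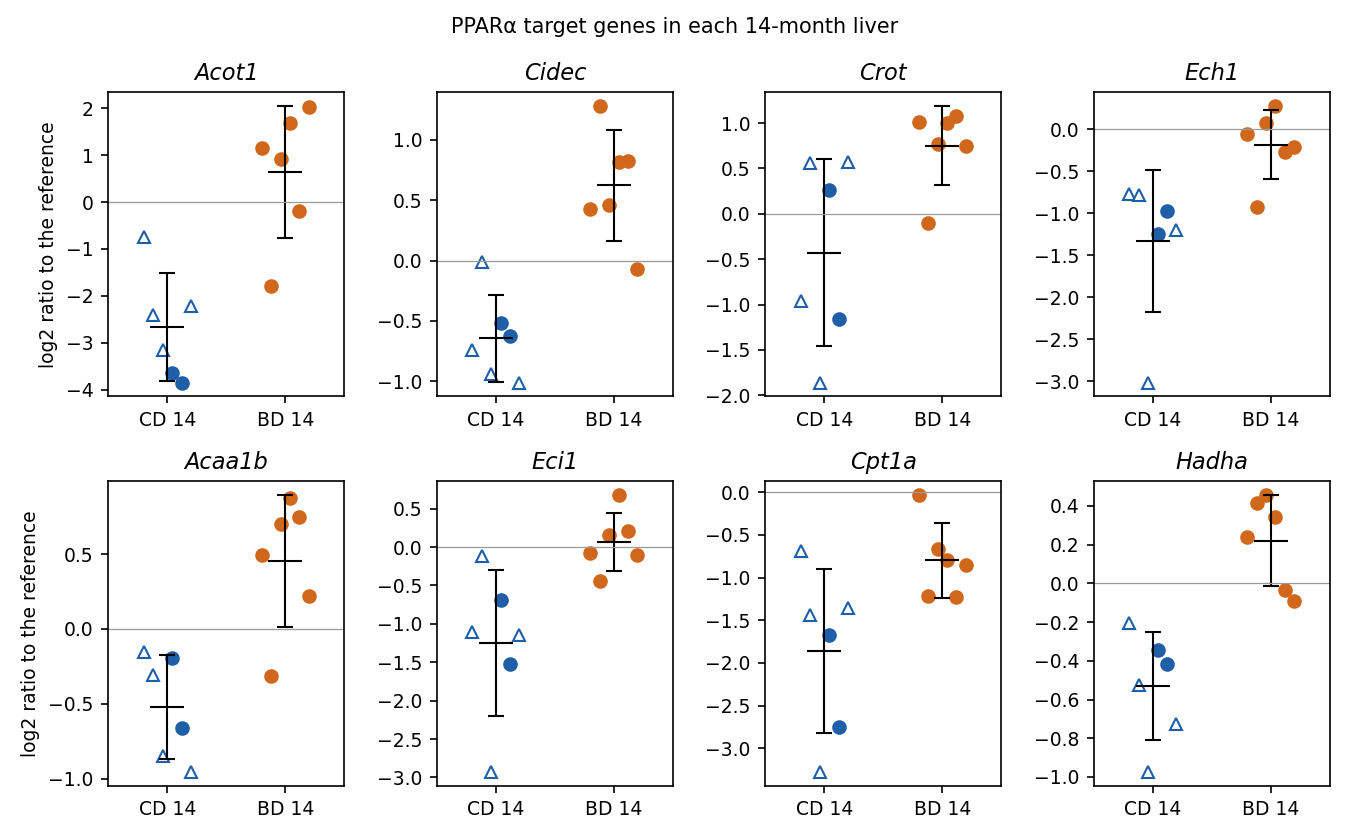
Log2 ratios to the reference are plotted for 8 PPARα target genes in each 14-month liver, with filled circles for slide A, open triangles for the other slides and black bars for the mean ± SD (n = 6). The BD 14 mean is the higher one in each panel, Hadha does not overlap, and BD 14 rat 2 (−1.78) is the only BD 14 liver within the CD 14 range of Acot1.

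Genes of lipid handling were less uniform. Of 17 tested, 12 were higher and 5 lower, with a median difference of 0.20, and 3 were higher at an unadjusted p under 0.05 (17.6%, beside 3.25% of all genes). The median was 0.09 without CD 14 rat 3 and 0.36 without BD 14 rat 2, and the count was 1 without CD 14 rat 3 or without BD 14 rat 4. Cidec, a lipid droplet protein that enlarges droplets (chr4:149309002-149314127), was at 0.43, 1.28, 0.46, 0.82, 0.82 and −0.07 in BD 14 rats 1 to 6. In CD 14 rats 1 to 6 it was at −0.74, −0.01, −0.94, −0.51, −0.63 and −1.01. The difference was 1.26 ± 0.28 (adjusted p = 0.416), 1.19 within slide A and 1.05 at 3 months, and only BD 14 rat 6 fell within the CD 14 range. Its relative Cidea differed by 1.03 ± 0.41, and by 1.27 in a second probe. Vnn1, a pantetheinase, differed by 1.35 ± 0.60, and by 1.56 within slide A, with wide spread, from −2.27 to 1.06 in BD 14 and from −4.13 to 0.45 in CD 14. Fabp1, the fatty acid binding protein of liver whose promoter holds the direct repeat, differed by 0.13 ± 0.24, with −0.21 to 0.69 in BD 14, inside the −0.71 to 0.71 of CD 14.

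Of the 20 targets with an unadjusted p under 0.05 at 14 months, 19 had the same direction at 3 months, beside 7203 of all 12666 genes. The 3-month diets shared only slide D, so the part of the slide in these directions was not tested. The difference of the diet effect between the time points was itself tested in limma, and 0 probes passed after adjustment.

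Genes of cholesterol synthesis were more often lower than higher in BD 14, with small counts. Of 25 tested, 17 were lower and 8 higher in BD 14, with a median difference of −0.22, and 4 were lower at an unadjusted p under 0.05 (16%, beside 0.987% of all genes and 1.26% of bright genes) and 0 higher. Tm7sf2, a sterol reductase (chr1:208700771-208700830), ranged from −2.02 to 0.22 in BD 14 and from −0.29 to 2.32 in CD 14, a difference of −1.49 ± 0.58 that was −2.09 within slide A. Cyp51, the sterol demethylase that follows the first sterol, ranged from −0.80 to 1.40 and from 0.20 to 1.63, a difference of −0.91 ± 0.39 that was −0.71 within slide A. Msmo1, a later oxidase of the pathway, differed by −0.65 ± 0.28, and Ebp, a sterol isomerase, by −0.49 ± 0.18. Each of these 4 groups of values overlapped between the diets, and BD 14 rats 1 and 2 lay in the CD 14 range for all 4. The mean log2 ratio of the list was −0.19 to 1.25 in BD 14 and 0.22 to 1.37 in CD 14.

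The result on the cholesterol genes was not stable. With each array left out the count of lower genes was 1 to 6 and the median difference between −0.28 and −0.01, and over 15 settings of the processing the median lay between −0.28 and −0.00. In the Cy5 channel alone 1 gene was lower at an unadjusted p under 0.05, and within slide A 1 was lower and 1 higher. At 3 months 13 of the 25 genes were higher and the median difference was 0.00. The sterol element, searched as TCACNCCAC, was found in 1.12% of all promoters and in 0 of the 17 promoters of these genes that were at hand.

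Of 24 genes of fatty acid and triglyceride synthesis, 16 were higher, with a median difference of 0.24, and 1 was higher at an unadjusted p under 0.05 (4.17%, beside 3.25% of all genes). Within slide A 22 were higher, 7 of them under that threshold, beside 5.91% of all genes there, and the median was 0.52. Without CD 14 rat 3, 20 were higher, 5 of them under it, beside 2.64% of all genes, and the median was 0.43. The median was 0.10 with 14 genes higher without CD 14 rat 5, 0.13 without BD 14 rat 1, and 0.09 in the Cy5 channel alone. The 1 gene counted over all arrays was Lpin1, a phosphatidate phosphatase that is also a coactivator of PPARα, with a median of 0.86 in BD 14 and −0.68 in CD 14. Its difference was 1.20 ± 0.39 at 14 months and −0.41 at 3 months, from a dim probe that was well above background on 5 of the 6 CD 14 arrays and passed the filter through BD 14 alone.

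In the lists of bile acid, retinoid and drug metabolism few genes had an unadjusted p under 0.05. Nr0b2, a receptor without a DNA-binding domain that holds back bile acid synthesis, differed by 1.05 ± 0.43, with −0.88 to 1.25 in BD 14 and −2.24 to −0.12 in CD 14. It was 1 of 17 genes of the bile acid list (5.88%, beside 3.25% of all genes) under that threshold. The list's median difference was −0.03, but 0.31 without BD 14 rat 2 and 0.21 within slide A, and the count was 0 without BD 14 rat 4 or without CD 14 rat 4. Cyp26a1, which breaks down retinoic acid, was the gene of the retinoid list under it (1 of 24, 4.17%, beside 3.25%), at 1.35 ± 0.55, but it was well above background on 3 of the 6 CD 14 arrays only. The median of the retinoid list was 0.12, and 0.02 without BD 14 rat 2, and with each array left out its count was 0 to 3. Cyp1a2, a cytochrome P450 of drug metabolism (chr8:61439236-61439295), differed by −0.996 ± 0.34. Its values were −1.71, −1.85, −2.37, −2.19, −1.05 and −3.13 in BD 14 rats 1 to 6 and −1.47, −1.43, −1.96, −0.55, −0.36 and −0.54 in CD 14 rats 1 to 6. The difference was −1.59 within slide A and −0.02 at 3 months. Por, the reductase that feeds electrons to the cytochromes P450, differed by 0.87 ± 0.38, and Cyp2c22 by 1.08 ± 0.51. In all, 2 of the 33 P450 genes tested were higher (6.06%, beside 3.25% of all genes) and 1 lower (3.03%, beside 0.987%) at an unadjusted p under 0.05, and none of the 3 was dim. The higher count was 0 without BD 14 rat 4, 1 without BD 14 rat 6 or any of CD 14 rats 1, 2, 4 and 5, 6 within slide A and 8 with array weights. Of 37 conjugating enzymes 0 were under that threshold over all arrays, while within slide A 7 were higher and 1 lower, and with the slide as a block 4 were higher.

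The antioxidant enzymes had a median difference of 0.18 over 42 genes, of which 29 were higher, 1 of them at an unadjusted p under 0.05 (2.38%, beside 3.25% of all genes). In the Cy5 channel alone 21 of the 42 were higher, with a median of 0.0072, and 1 was higher and 2 lower under that threshold. Without CD 14 rat 1 the median was 0.11, and within slide A 5 were higher under that threshold. The 1 gene counted on ratios was the dim Txnrd3, a thioredoxin reductase (0.93 ± 0.32), whose difference was −0.06 in the Cy5 channel alone. It was well above background on 5 of the 6 CD 14 arrays and passed the filter through BD 14 alone. Gpx1, Irf7 and Prodh, which the study followed by PCR, had differences within their errors. Gpx1 differed by 0.00 ± 0.24, Irf7 by 0.23 ± 0.40 and Prodh by −0.31 ± 0.34, and a second Prodh probe gave 0.92 ± 0.82. The direction of Gpx1 and of Prodh also turned under other settings, Gpx1 after normexp and after centring and Prodh in the Cy5 channel alone. Rgn, a gluconolactonase whose level is known to fall with age in rat liver, was lower in BD 14 by −0.84 ± 0.32, and by −1.41 within slide A.

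Of 53 interferon-stimulated genes tested, 41 were higher in BD 14, with a median difference of 0.21 over all arrays and 0.09 within slide A, and 4 were higher at an unadjusted p under 0.05 (7.55%, beside 3.25% of all genes), 2 of them dim. Within slide A 2 were higher and 2 lower under that threshold. With each array left out the higher count was 2 to 5, with 2 without BD 14 rat 1, BD 14 rat 6 or CD 14 rat 3, and it was 1 with the slide as a block. Oasl, an antiviral gene related to the oligoadenylate synthetases, did not overlap, with 2.04 to 4.28 in BD 14 and 0.69 to 1.88 in CD 14, a difference of 1.39 ± 0.49 from a dim probe that was well above background on 5 of the 6 CD 14 arrays. Ifi44l, dim as well, differed by 1.20 ± 0.45 over all arrays but by 0.26 within slide A, where CD 14 rats 4 and 5 were at 2.51 and 1.92. Cxcl10, a chemokine that draws T cells, differed by 1.54 ± 0.69, and Oas1i by 0.82 ± 0.40, with differences of 0.85 and 0.47 within slide A. At 3 months these last 2 differed by −0.22 and −0.66.

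Acute phase and immune cell genes had other values within slide A than over all arrays. Of 30 acute phase and complement genes, 12 were higher and the median difference was −0.05 over all arrays, and within slide A 4 were higher, the median was −0.80, and 11 were lower at an unadjusted p under 0.05 (beside 4.67% of all genes there). CD 14 rats 4 and 5, the controls on slide A, had mean log2 ratios of 1.24 and 1.19 over the list, CD 14 rats 1, 2 and 3 had 0.18, 0.14 and 0.18, and CD 14 rat 6 had 0.68. BD 14 rats 2 and 5 were at 1.40 and 1.21, and the other 4 between 0.22 and 0.25. Over the 13 lymphocyte markers the median difference was −0.10 over all arrays and −0.82 within slide A. Their mean log2 ratio was 0.97 and 0.73 in CD 14 rats 4 and 5, 0.77 in CD 14 rat 6 on slide C, and −0.31 to −0.08 in CD 14 rats 1 to 3. With each array left out the lymphocyte median was −0.37 to −0.06 and that of the acute phase list −0.27 to 0.04. The macrophage markers had medians of −0.13 over all arrays, from −0.28 to 0.03 with each array left out, and −0.70 within slide A (13 of the 14 genes, those with a value on all its arrays), with 0.15 and −0.14 in CD 14 rats 4 and 5 and 0.20 and 0.03 in BD 14 rats 5 and 1. Hamp, the iron hormone hepcidin, differed by 1.31 ± 0.60 through CD 14 rat 4 at −4.44, and without that rat by 0.49, no longer under an unadjusted p of 0.05. Crp, the C-reactive protein gene, differed by 0.55 ± 0.26 over all arrays and by 0.19 within slide A. In each of these 3 lists CD 14 rats 4 and 5 lay above CD 14 rats 1 to 3, though not above all other arrays, and rat and slide cannot be told apart there.

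Markers of other cells held 1 gene with an unadjusted p under 0.05. Of 16 stellate cell and collagen genes, 12 were higher, with a median difference of 0.27, and 1, the basement membrane collagen Col4a2, was that gene (0.55 ± 0.26, from a dim probe). Its share of the list was 6.25%, beside 3.25% of all genes that were higher. The median was 0.11 without BD 14 rat 5, where 0 were counted, and 0.14 without BD 14 rat 6. All 6 red cell markers tested were lower in BD 14, with differences of −0.55 to −0.21, none of them at an unadjusted p under 0.05. The median difference was −0.40, which was −0.23 without BD 14 rat 6 and −0.72 within slide A. The mean log2 ratio of the red cell markers was −1.85 to 0.16 in BD 14 and −1.41 to 0.01 in CD 14. Of the 7 endothelial markers 1 was higher, and of the 4 bile duct and 4 adipocyte markers tested 3 were higher in each list. Of 12 pancreas acinar markers on the array 5 were tested, with a median difference of −0.03 that was 0.51 without BD 14 rat 6 and −0.51 without CD 14 rat 3. The part of these cells in the values of the metabolic genes was not tested.

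**Figure D4:**
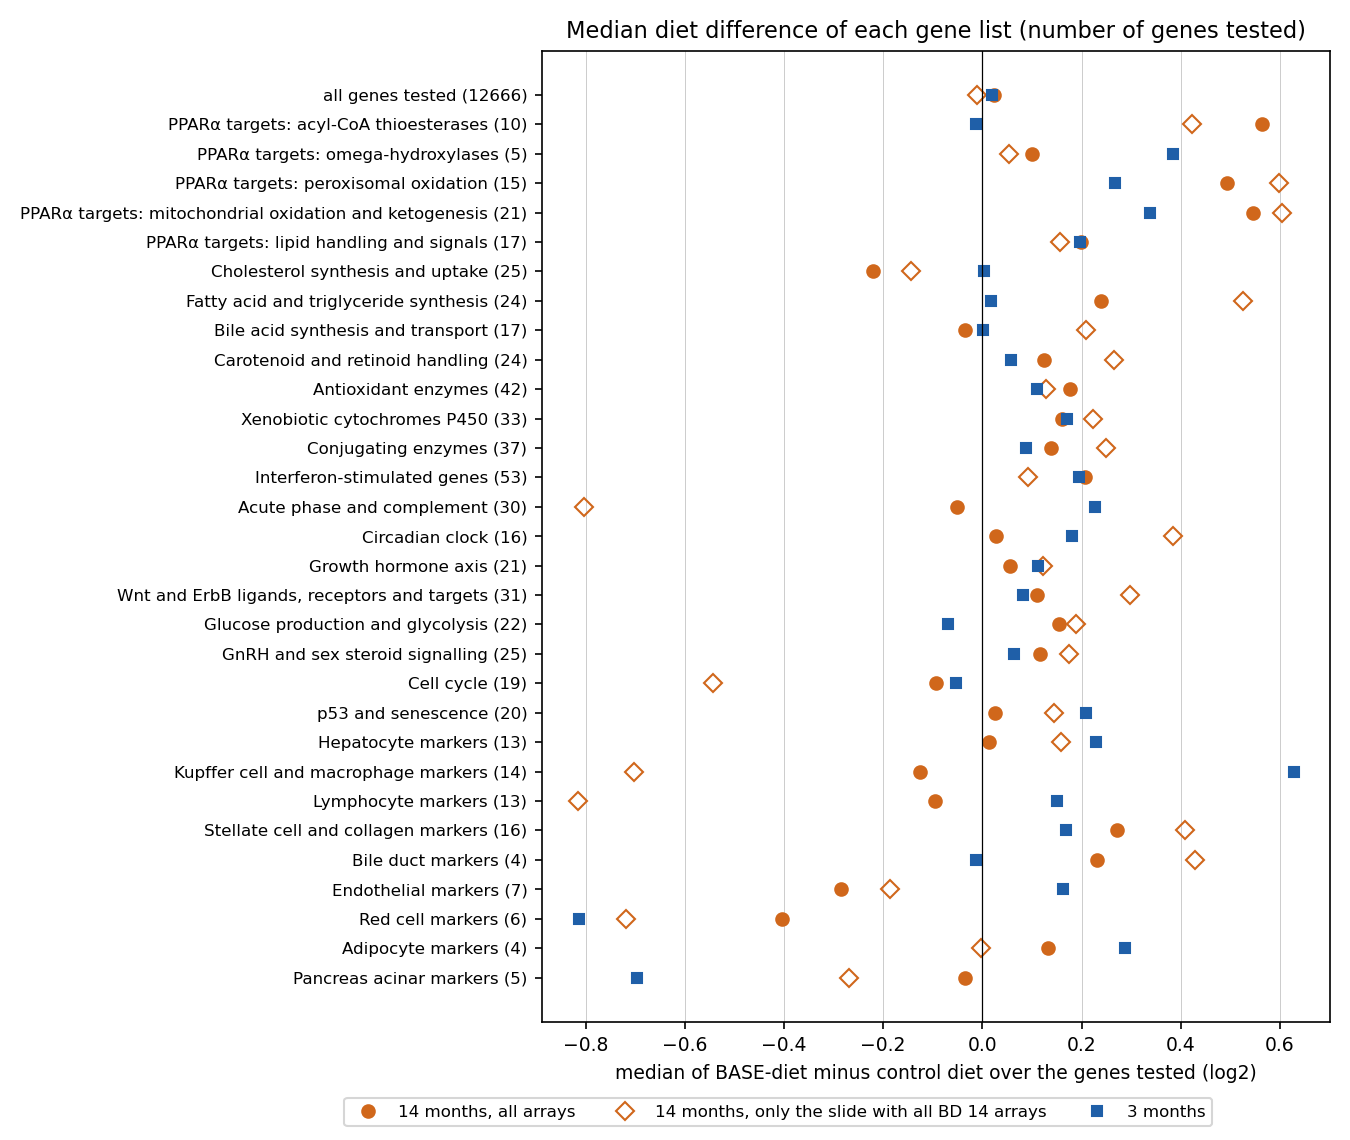
For each gene list the median of BASE-diet minus control diet (log2) over the genes tested is plotted at 14 months over all arrays (filled orange circles), at 14 months within slide A (open diamonds) and at 3 months (blue squares), with the number of genes tested in brackets. The peroxisomal and mitochondrial lists lie above 0 in all 3, as do others such as the antioxidant, P450 and interferon lists, while acute phase, lymphocyte and macrophage medians within slide A lie between −0.70 and −0.82.

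A small number of genes did not overlap between the diets. Of the 12485 genes with a value on all 12 arrays, 77 were higher in every BD 14 rat than in every CD 14 rat (0.617%) and 17 were lower (0.136%). Of these, 70 and 17 were well above background on all 12 arrays. At 3 months 62 of the 77 and 8 of the 17 had the same direction, beside 7203 of all 12666. Of the 12 higher and 12 lower genes with the smallest p, which are described here, 7 and 5 had the same direction at 3 months. Of the 12 higher genes, 11 had probes below the median signal and 7 were well above background on all 12 arrays, while of the 12 lower genes 9 lay at or above the median and all 12 were above background on all arrays. In the higher genes the lead was held by Tcf20, a transcriptional coregulator (chr7:120871647-120871706), with 1.15 to 1.64 in BD 14 and −1.17 to 0.52 in CD 14. Its difference was 1.59 ± 0.29 (adjusted p = 0.146), 1.18 within slide A and −0.06 at 3 months, and it was well above background on 4 of the 6 CD 14 arrays. Aig1, which hydrolyses fatty acid esters of hydroxy fatty acids (chr1:8457109-8457168), was the bright one of the 12. It ranged from −0.53 to 0.66 in BD 14 and from −1.90 to −0.71 in CD 14, a difference of 1.26 ± 0.28, 1.35 within slide A and 0.75 at 3 months.

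The other 10 higher genes had differences of 0.78 to 1.89. Wnt11, a secreted ligand of non-canonical Wnt signalling, ranged from 0.57 to 1.60 in BD 14 and from −1.69 to 0.53 in CD 14, and differed by 1.55 ± 0.35, and by 2.18 within slide A. Nrg1, a ligand of ErbB receptors, ranged from 2.69 to 4.27 and from 1.07 to 2.57, and differed by 1.24 ± 0.33, and by 1.03 within slide A. Itpk1, an inositol phosphate kinase, differed by 1.89 ± 0.51, Rrn3, a factor of RNA polymerase I, by 1.49 ± 0.39, and Thrb, a thyroid hormone receptor, by 0.95 ± 0.30. The others were Btbd9, the pseudogene Helt-ps1, Tmem129, the vasopressin receptor Avpr2 and Armcx6. A second, dimmer Tmem129 probe gave 0.18 ± 0.33 against 1.57 ± 0.46.

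Of the lower genes that did not overlap, Disp1, which releases Hedgehog ligands from the cell (chr13:99095679-99095738), had the largest difference of the 12, at −0.59 to −0.18 in BD 14 and 0.34 to 1.80 in CD 14. Its difference was −1.41 ± 0.28 (adjusted p = 0.388), −0.98 within slide A and −0.45 at 3 months. Cic, a transcriptional repressor (chr1:80569373-80569432), lay at −0.36 ± 0.06 in BD 14 and 0.07 ± 0.18 in CD 14 (SD, n = 6), a difference of −0.44 ± 0.13, though a second, dimmer probe gave 0.46 ± 0.34. Ncstn, a subunit of γ-secretase, differed by −0.38 ± 0.13 and by −0.07 ± 0.13 in its second probe. Serp2, Irx1, Zscan10, Zfp629, Brd8, Swap70, Ost4, Cib1 and Atraid differed by −0.24 to −0.81, those of Swap70, Ost4, Cib1 and Atraid short of an unadjusted p of 0.05, and in the Cy5 channel alone the differences of Brd8, Swap70 and Atraid were above 0.

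**Figure D5:**
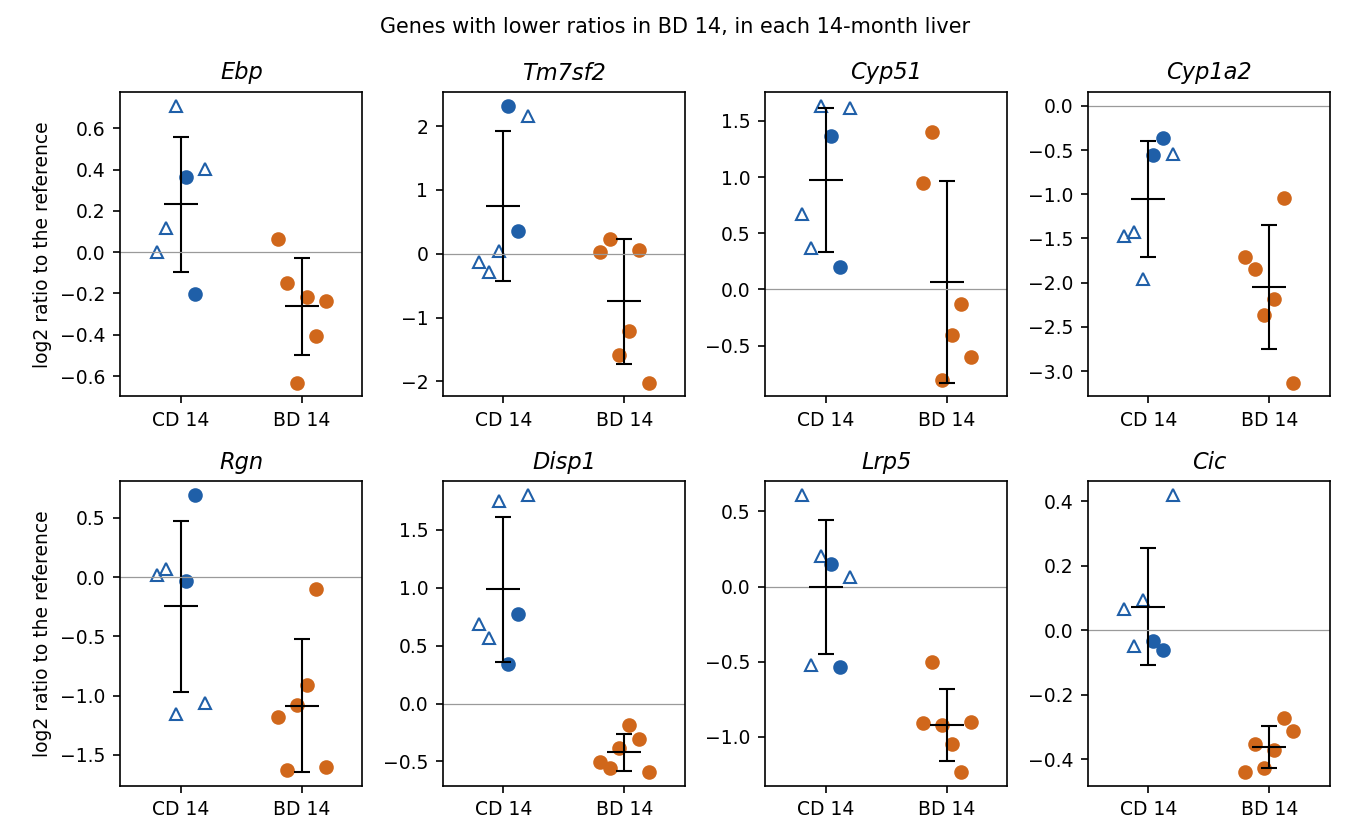
Log2 ratios to the reference are plotted for 8 genes that were lower in BD 14 in each 14-month liver, with filled circles for slide A, open triangles for the other slides and black bars for the mean ± SD (n = 6). Disp1 and Cic do not overlap between the diets, while Ebp, Tm7sf2, Cyp51, Cyp1a2, Rgn and Lrp5 do.

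Wnt and ErbB genes had members in both directions. Of 31 tested, 18 were higher and 4 of them at an unadjusted p under 0.05 (12.9%, beside 3.25% of all genes), and 13 were lower with 1 of them under it (3.23%, beside 0.987%). All 4 higher ones were dim, Fzd4 was well above background on 4 of the 6 CD 14 arrays, and 2 were counted after normexp, 1 in the Cy5 channel alone, and 2 without BD 14 rat 4 or without CD 14 rat 3. Besides Wnt11 and Nrg1, the higher ones were Erbb3, a receptor that binds neuregulins, at 0.39 ± 0.18, and Fzd4, a receptor of Wnt ligands that was named after its values were seen, at 0.94 ± 0.44. Lrp5, a coreceptor of Wnt ligands, was the lower one, at −0.91, −0.50, −0.92, −1.05, −1.23 and −0.90 in BD 14 rats 1 to 6 and 0.61, −0.52, 0.20, 0.15, −0.54 and 0.06 in CD 14 rats 1 to 6. Its difference was −0.92 ± 0.24 (adjusted p = 0.659), and −0.73 within slide A.

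Of 122 pathway genes that the study lists at 14 months, 121 were on the array and 19 passed the filter, 15 of these with a signal below the median. Since the study chose them on these samples, their counts are no independent evidence: 7 were higher and 3 lower at an unadjusted p under 0.05. In the Cy5 channel alone 1 was higher and 1 lower, and after normexp 2 and 3. Besides Wnt11, Nrg1, Ech1 and Lrp5, they were Tgfb2 (1.04 ± 0.26), Lhx4 (1.04 ± 0.27), Trpm5 (1.06 ± 0.35), Agrp (0.95 ± 0.31), Slc1a2 (−0.98 ± 0.29) and Pou1f1 (−0.73 ± 0.31). In the Cy5 channel alone Lhx4 and Trpm5 differed by −0.02 and −0.01 and Pou1f1 by 1.17. Genes of hormone and growth signalling that differed at an unadjusted p under 0.05 included Esr1, the oestrogen receptor (0.97 ± 0.36), Nos2, the inducible nitric oxide synthase (0.56 ± 0.21), and Fshr, the receptor of follicle-stimulating hormone (0.64 ± 0.26). All 3 had dim probes. They were the 3 of 25 tested genes under that threshold in the list of GnRH and sex steroid signalling, where 16 were higher and the median difference was 0.12, and 0.04 without CD 14 rat 5. Esr1 was well above background on 3 of the 6 CD 14 arrays and Fshr on 5 of the 6 BD 14 arrays, so that each passed the filter through 1 diet alone, and 1 of the 3 was above it on all 12 arrays. Their share was 12%, beside 3.25% of all genes, and 0 of the list were counted after normexp and 1 in the Cy5 channel alone. Hnf4a, a master regulator of hepatocyte genes, differed by 0.77 ± 0.29, and by 0.37 within slide A, with 0.11 to 0.68 in BD 14 and −0.97 to 0.32 in CD 14. Its probe was dim, and it was the 1 of 13 hepatocyte markers under that threshold (7.69%, beside 3.25% of all genes). Of the 13, 7 were higher and 6 lower, with a median difference of 0.01. Of 21 genes of the growth hormone axis 1 was under that threshold, Rgn, which was lower (4.76%, beside 0.987% of all genes that were lower). Of 22 genes of glucose production and glycolysis and 20 of p53 and senescence 0 were under it, with median differences of 0.15 and 0.03, which were 0.05 to 0.21 and −0.01 to 0.10 with each array left out. Within slide A 5 of the 22 were higher, and 3 of the 20 were higher and 1 lower under that threshold, with medians of 0.19 and 0.15. Of 19 cell cycle genes 1 was higher under that threshold (5.26%, beside 3.25% of all genes), Ccnd1, the cyclin that opens the cycle (1.17 ± 0.43). It differed by 2.42 within slide A, where CD 14 rats 4 and 5 held its lowest values of −2.54 and −2.34, and the median difference of the list was −0.09 over all arrays, −0.54 within slide A and 0.53 in the Cy5 channel alone, and −0.21 to 0.09 with each array left out. Of 16 clock genes 0 were under that threshold, and the closest was Nr1d2, a repressor of the clock, at 0.78 ± 0.38 and at 1.66 within slide A. Within slide A 3 of the 16 were higher under it and the list's median was 0.38, beside 0.03 over all arrays, and with the slide as a block 2 were higher under it.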

How the data were processed

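Each liver was hybridized with a common reference RNA to 1 Agilent two-colour array. The intensity values of each spot were deposited by the authors as Agilent Feature Extraction wrote them (version 10.7.3.1 in the submitters' processing notes, while the file headers give others), with background subtracted and dyes normalized by Lowess. The log10 values are, per the file headers, ratios of Cy5 to Cy3, and the probes are placed on build rn4. The authors' table of deposited log2 values, already filtered for 3017 entries, served as a check only. Its 12 columns of the 14-month rats each matched their own array best (r of 0.9986 or above), and 10 columns were not used.

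These ratios were put on the log2 scale and averaged over the spots of each of 30367 probes, leaving out controls and uneven spots. The filter kept probes with the software's Cy5 flag for signal over background, on a share of spots of 0.5 or more, on all arrays of BD 14 or all of CD 14. Names came from RefSeq accessions for 18377 probes, from current symbols for 2484 and from the file for 2406, and 7100 probes had none. The probe with the highest mean Cy5 signal stood for a gene. The 4 group means of all 22 arrays were fitted with limma 3.58.1 in R 4.3.3, with two-sided p-values adjusted by Benjamini-Hochberg over 18883 probes at 0.05. The steps were tested on simulated data. Precision is limited by the number of arrays, and the median SE of a difference was 0.29.

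Genes are named by a rule: the 12 higher and 12 lower non-overlapping genes of smallest p, the 4 members of smallest p in each of 30 lists, genes detected in 1 group only (0 found), and the study's 14-month genes with an unadjusted p under 0.05 with the 3 it measured by PCR. Not every gene that the rule takes is reported here, and list members outside it (Fabp1 and Pdk4 besides those noted in place) were chosen after their values were seen. The lists and the comparison were chosen with earlier results of these data known.

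Alternatives were normexp with an offset of 50 and loess, Cy5 alone, centred arrays, other filters, uneven spots kept, a trend of variance on intensity, weights per array, a block for slide or for rat number, only the 12 arrays or slide A, other probes of a gene, the F test and Tukey's HSD of the methods, and leaving out each array. The omission of CD 14 rats 1 and 3 was chosen after seeing the data.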

Additional observations from a re-analysis of the deposited data

Results flagged for a closer look

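In each group of 6 arrays the highest or lowest value was set against the others by Dixon's test, over the named genes and the array measures. Of 182 groups tested, 14 had a value that stood apart, and chance flags about 1 in 20 groups. No difference of the diet effect between 14 and 3 months passed the adjusted threshold in limma (0 probes).

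Among the PPARα targets, Ech1 was at −3.02 in CD 14 rat 3 against −1.25 to −0.77 in the other 5 control rats, and the same rat stood apart in Angptl4, a secreted inhibitor of lipoprotein lipase, at −2.60 against −0.25 to −0.01. Without rat 3 the difference of Angptl4 was 0.41 in place of 0.82. Crot was at −0.10 in BD 14 rat 2, and without that rat its difference was 1.35.

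Of the remaining gene values, 4 belong to CD 14 rat 4 and the rest to 5 other rats. Oasl was at 4.28 in BD 14 rat 6, Nrg1 at 4.27 and Btbd9 at 1.53 in BD 14 rat 2, and Pou1f1 at −0.89 in BD 14 rat 3. Among the control rats, Hamp was at −4.44, Nos2 at 0.86, Helt-ps1 at −2.07 and Fzd4 at 1.24 in CD 14 rat 4, Rrn3 at −2.10 in rat 5 and Cic at 0.42 in rat 6. Without the value that stood apart, the differences of Hamp and Pou1f1 were 0.49 and −0.63, no longer under an unadjusted p of 0.05, while that of Oasl was 1.05 and stayed under it. The share of spots with uneven signal was 4.05% on the array of CD 14 rat 1.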

How the results depend on the processing

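Over other settings of the processing 985 of 1005 values of the 88 named genes kept their direction, and 1049 of 1056 with 1 array left out. The trend of variance, only the 12 arrays and the block for rat number change the SE and hardly the difference, so they test the direction little. The slide as a block gives the same difference as slide A alone. Non-overlapping genes cannot turn when 1 array is left out. An unadjusted p under 0.05 was lost without a turn by 45 of the 88 in Cy5 alone, 36 with the slide as a block and 27 within slide A. It was gained by 3, 4 and 5. The causes of the changes listed here were not tested. In limma the number of probes with an unadjusted p under 0.05 was 860, and 1319 without a filter, 2089 with array weights, 1501 with the slide as a block, 1928 with only the 12 arrays, 2170 with only slide A, and 538 with 1 probe a gene, where fewer were tested. Probes called after adjustment were 5 with array weights and 6 with the slide as a block, and by the methods' F test 172 without and 1 with adjustment. PPARα targets under that threshold were 34, 9 and 12 with array weights, the slide as a block and CD 14 rats 1 and 3 omitted. Lower cholesterol genes were 1 in Cy5 alone, 8 with array weights, 2 with the slide as a block and 1 with only slide A. With 1 array left out these 4 counts were 573 to 981 (lowest without CD 14 rat 6), 0 to 1, 11 to 27 and 1 to 6. The lowest cholesterol count was that without BD 14 rat 6.

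The rats' numbers do not pair the samples, since same-numbered arrays of the 2 diets correlated between −0.28 and 0.24 in their deviations and 1 of 6 pairs was over 0.1. With the replicate block 0 probes were called, 1775 had an unadjusted p under 0.05, and 23 PPARα and 2 cholesterol genes passed it. The shares of all genes under this setting were 7.05% higher and 1.76% lower.

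Directions that turned were, in Cy5 alone, Txnrd3 (−0.060), Lhx4 (−0.018), Trpm5 (−0.0059), Pou1f1 (1.17), Prodh (0.11), Brd8 (0.12), Swap70 (0.18) and Atraid (0.13). Gpx1 turned with normexp (−0.015), centring (−0.057) and array weights (−0.057). With the slide as a block or only slide A, Prodh (0.078), Pdk4 (0.059) and Fabp1 (−0.13) turned. Other probes turned Prodh (0.92), Cic (0.46) and Brd8 (0.15). With 1 array left out, 3 genes with differences near 0 turned, with ranges of −0.21 to 0.15 in Gpx1, −0.14 to 0.028 in Pdk4 and −0.060 to 0.26 in Fabp1. The other named genes kept their direction in the settings run. For dim probes the nearness of the background limits what a ratio can show.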

Other observations

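Outside the rule for named genes, and chosen after their values were seen, 4 genes had large differences. Acsm5, an acyl-CoA synthetase of medium-chain fatty acids, differed by 2.06 ± 1.46 (SE) on the log2 scale, and by 2.27 ± 0.81 in a second probe. Cldn7, a tight junction protein, was at 2.95 ± 1.51 (SD, n = 6) in BD 14 and 0.83 ± 0.59 in CD 14. Ubd, a ubiquitin-like protein, differed by −2.68 ± 1.81 (SE), with SDs of 3.35 in BD 14 and 4.15 in CD 14, so the difference lay within the spread between rats. Dnase2b, an acid nuclease, was at 0.87 ± 1.01 (SD, n = 6) in BD 14 and 2.41 ± 0.72 in CD 14. None had an adjusted p under 0.05 in limma.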
